A study of Mus musculus with 8 samples.

Results

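Transforming growth factor beta (TGF-beta) signalling and the regulators of mesenchymal transition were followed here as 35 named genes of the 36432 gene IDs measured in whole mouse pancreas. The genes were taken by symbol, and each of the 35 was found on 1 entry with a valid estimate in all 8 libraries. They comprise 5 ligands, 4 latent TGF-beta binding proteins, 4 integrin subunits, 3 receptors, 4 signalling SMADs, 3 inhibitors, 6 transition factors, 2 mesenchymal cadherins and 4 target genes of TGF-beta or YAP. Poly(A) RNA came from the whole pancreas of 8 mice of mixed strain aged 6 to 8 weeks. Of these, 4 were labelled Ptf1a-Cre +/KI; Gata6 lox/lox, meaning that Cre recombinase from the Ptf1a locus, which acts in the progenitors of acinar, duct and islet cells, is present with lox-flanked Gata6 alleles. The other 4 were controls labelled Ptf1a-Cre +/KI, so both groups carry the Cre allele. The series set out to compare pancreas without Gata6, a zinc-finger transcription factor, with its control, and the level of Gata6 in these libraries is given below.

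TGF-beta is secreted in a latent complex that binds the extracellular matrix through latent TGF-beta binding proteins and is released by, among others, integrins that contain the alpha v chain. The free ligand joins a type II and a type I receptor kinase, which phosphorylate SMAD2 and SMAD3, and these enter the nucleus with SMAD4. In the pancreas the pathway is best known for the activation of stellate cells and the deposition of matrix. ZEB, SNAIL and TWIST factors repress epithelial genes during mesenchymal transition, and YAP, the effector of the Hippo pathway, acts through TEAD factors on targets such as Ctgf and Cyr61.

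Levels are given as rescaled FPKM, fragments per kilobase of transcript scaled by the authors' software and divided by 1 constant. They are per length and relative within a library, and their sums differ between libraries. Gata6 itself was 4.81, 5.12, 4.90 and 4.12 in the libraries labelled Gata6 lox/lox, against 2.76, 2.12, 2.62 and 2.45 in the controls. It was thus higher, not lower, in every library labelled as lacking it (log2 fold change 0.72, SE 0.11, limma adjusted p = 0.0442; exact permutation p = 0.0286, two-sided, the smallest that 4 against 4 can give). The limma adjusted p of Gata6 lay between 0.0324 and 0.631 under the alternatives, and it stayed under 0.05 in only 1 of them, without library 4. A gene-level value covers all exons, and the labels do not say which exons the lox sites flank. The 4 are therefore called labelled libraries 1 to 4 throughout. The intervals in the files imply 4811619 to 7420118 fragments per labelled library and 6016821 to 7299502 per control. These totals leave out the 39 genes without a valid estimate in every library, 8 of them too abundant, so they are not whole-library totals. Labelled libraries 1 and 3 stand apart from the other libraries: the summed level of 11 acinar markers was 2950 and 31659 there and 169567 and 222244 in labelled libraries 2 and 4, whereas controls had 323494 to 454740. Title prefixes and sex also run with the groups. Labelled libraries 1, 3 and 4 and control 1 share a title prefix and have Eif2s3y, a Y-linked gene, at 13.7, 7.66, 7.66 and 5.34, whereas labelled library 2 and controls 2 to 4 have other prefixes and Xist, expressed from the inactive X, at 32.0, 24.5, 17.3 and 26.1. Labels do not say what the prefix stands for, nor whether the animals were littermates.

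Across the 35 genes the labelled libraries tended to hold the higher values, in libraries 1 and 3 above all, and none of the genes passed the adjusted threshold with all 8 libraries. The TGF-beta receptors Tgfbr1, Tgfbr2 and Tgfbr3, the ligand Tgfb1, the integrin chain Itga5, the BMP effector Smad1 and the cadherin Cdh11 were higher in each labelled library than in every control. These 7 stand beside 10.9% of all genes tested. Inhbb and Twist2, both too low for the test described below, were also higher throughout. The 10.9% does not cover genes that low, and the Twist2 controls rest on 0 to 2.0 implied fragments. For most members the values overlapped between the groups, among them Ltbp4 and also Smad6 and Smad7, which inhibit the pathway. A gene entered the test if its rescaled FPKM averaged 1 or more across all libraries, which 24 of the 35 did. Of these, Tgfb2, Ltbp2, Itgb6 and Cyr61 had a control mean under 1 and passed through the labelled libraries, so the counts over the 24 are descriptions.

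With limma and Benjamini-Hochberg adjustment over 11832 genes, 0 of the 24 tested members had an adjusted p under 0.05, beside 0.414% of all genes tested (26 higher and 23 lower). The lowest adjusted p was 0.0981, for Tgfb1. At an unadjusted p under 0.05 there were 13 of the 24 (54.2%), all higher in the labelled libraries, beside 30.1% of all genes (17.8% higher and 12.2% lower). By role they were 2 of 3 tested ligands, 1 of 4 latent TGF-beta binding proteins, 2 of 3 integrin chains, 3 of 3 receptors, 2 of 4 signalling SMADs, 0 of 1 inhibitor, 1 of 2 transition factors, 1 of 1 cadherin and 1 of 3 targets. In 7 of the 24 all labelled libraries exceeded all controls (29.2%), beside 10.9% of all genes. The log2 fold change was above 0 in 23 of the 24, beside 57.8% of all genes, and its median was 0.64 against 0.10 over all genes, where the quartiles were -0.28 and 0.44. With genes admitted by a control mean of at least 1, a choice made after the values were seen, 20 members were tested. Of these 20, 11 (55.0%) had an unadjusted p under 0.05 beside 29.4% of all genes, 7 did not overlap (beside 9.23% of all genes), and the median was again 0.64. Without any minimum all 35 were tested, 0 passed the adjusted limma threshold (0.139% of all genes did), 14 (40.0%) had an unadjusted p under 0.05 beside 20.6%, and the median log2 fold change was 0.43.

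The members' values depend on which labelled libraries are counted. Leaving out labelled library 4, where the members were closest to the controls, 9 of the 24 passed an adjusted p of 0.05, all of them higher, beside 21.6% of all genes in either direction and 11.5% higher. These were Tgfb1, Tgfb3, Ltbp2, Tgfbr1, Tgfbr2, Tgfbr3, Zeb2, Cdh11 and Tgfbi, with limma adjusted p from 0.0349 to 0.0463. Leaving out this library raises by construction the fold change of genes that are lowest there, and with any other single library left out 0 members passed (unadjusted counts of 6 to 15). Leaving out labelled libraries 1 and 3 instead, 3 of the 24 (12.5%) had an unadjusted p under 0.05 beside 13.5% of all genes, 18 of the 24 had a positive log2 fold change, and the median was 0.23 against 0.00 over all genes. Within the shared prefix (3 labelled libraries and 1 control) 1 of the 24 had an unadjusted p under 0.05 (4.17% beside 5.2%) with a median of 0.76, and within the other prefixes (1 labelled library and 3 controls) there were 6 (beside 16.0%) with a median of 0.28. With the prefix as a covariate there were 4 (16.7% beside 16.2%), the median was 0.48 and 0 passed the adjusted limma threshold.

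Scaling changed the count more than the sign. At an unadjusted p under 0.05 there were 11 of 24 members under median-ratio scaling (45.8% beside 30.9% of all genes), 8 under quantile normalization (33.3% beside 26.5%) and 24 of the 27 then tested when libraries were set to equal implied totals (88.9% beside 63.5%). That last scaling moved the median of all genes to 1.11 and that of the members to 1.52. With a minimum of 5 only 6 members were tested and 1 had such a p (16.7% beside 34.6%).

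**Figure D1:**
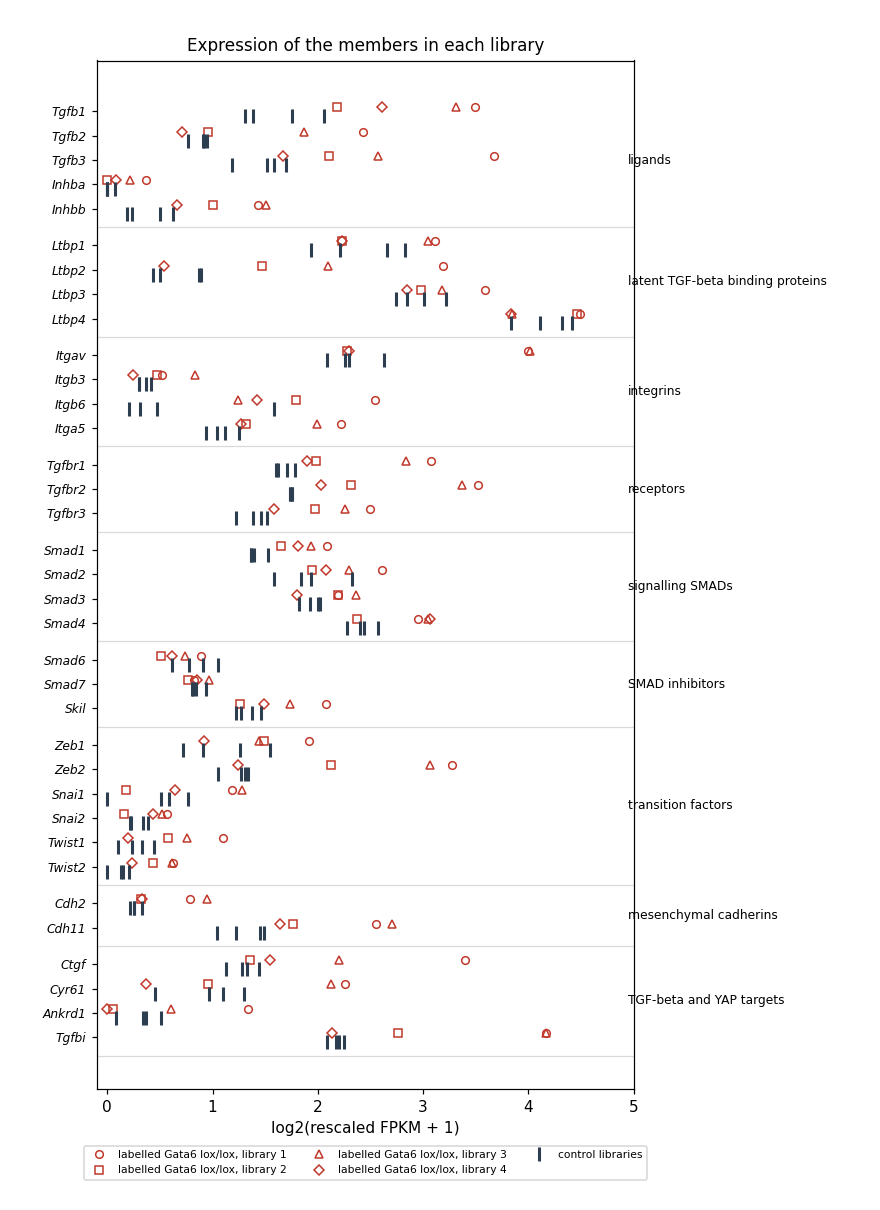
Expression of the 35 members on the log2(rescaled FPKM + 1) scale, grouped by role, with open red symbols for labelled libraries 1 to 4 and dark ticks for the 4 controls. Circles and triangles, labelled libraries 1 and 3, lie furthest right in most rows, and they are the 2 highest of the labelled libraries in 30 of the 35 genes.

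**Figure D2:**
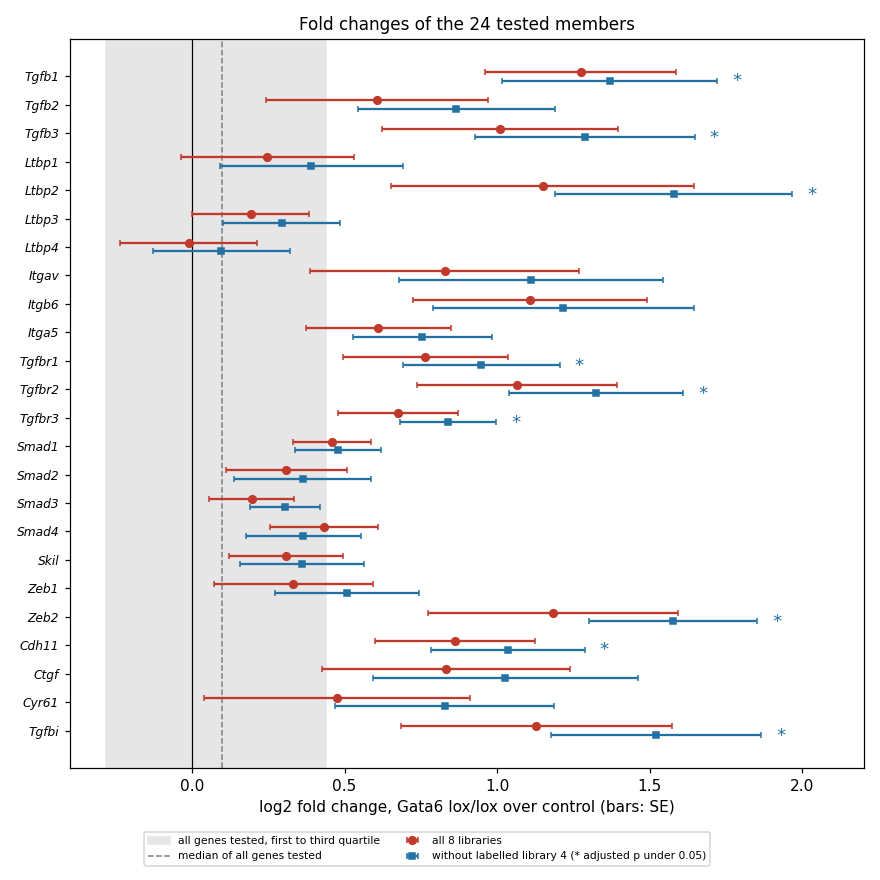
Log2 fold change of the 24 tested members, labelled Gata6 lox/lox over control, with bars of 1 SE, for all 8 libraries (circles) and without labelled library 4 (squares, asterisks marking an adjusted p under 0.05). The grey band spans the quartiles of all genes tested, -0.28 to 0.44, and 9 members carry an asterisk.

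Of the ligands, Tgfb1, the most widely made form and a product of immune and stromal cells as well as epithelium, was 10.2, 3.52, 8.96 and 5.11 rescaled FPKM in labelled libraries 1 to 4, against 1.61, 3.17, 1.47 and 2.38 in controls 1 to 4. Every labelled library lay above every control, with library 2 only just above control 2. Tgfb1 (ENSMUSG00000002603, mm9 chr7:26472021-26490096) averaged 6.96 ± 3.16 in the labelled libraries and 2.16 ± 0.786 in controls (SD, n = 4 each), a log2 fold change of 1.27 (SE 0.31, limma adjusted p = 0.0981). Its control values rest on 4.41 to 9.0 implied fragments. Tgfb3, a ligand prominent in mesenchyme, was 11.8, 3.29, 4.94 and 2.17 in the labelled libraries, against 1.27, 1.86, 2.00 and 2.24 in controls. Labelled library 1 was far above the rest and library 4 lay within the control range (log2 fold change 1.01, SE 0.39, limma adjusted p = 0.138).

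Tgfb2, the remaining TGF-beta isoform, was 4.38, 0.935, 2.66 and 0.633 in the labelled libraries, against 0.934, 0.885, 0.874 and 0.699 in controls. Only libraries 1 and 3 were clearly above the controls, and the difference had an adjusted p of 0.269 by limma. The activin subunits were low. Inhbb, the activin beta B chain, was 1.69, 1.01, 1.84 and 0.579, against 0.174, 0.411, 0.136 and 0.541 in controls, so the groups did not overlap although the margin of library 4 was small. Inhbb was below the minimum and was fitted only without one (log2 fold change 0.77, limma adjusted p = 0.177). Inhba, the beta A chain, was listed at 0 in 1 labelled library and 3 controls and reached 0.286 in labelled library 1.

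Among the latent TGF-beta binding proteins only Ltbp2 had an unadjusted p under 0.05. Ltbp2, a matrix protein bound to elastic fibres that, unlike the others, does not bind latent TGF-beta, was 8.12, 1.76, 3.28 and 0.450 in the labelled libraries, against 0.853, 0.415, 0.348 and 0.827 in controls. Labelled libraries 1 to 3 lay above every control and library 4 did not (log2 fold change 1.15, SE 0.50, limma adjusted p = 0.163). Its control values rest on 1.95 to 3.11 implied fragments and labelled library 4 on 1.23. The authors' intervals reach 0 in that library and in every control. Ltbp1, Ltbp3 and Ltbp4 overlapped between the groups, with log2 fold changes of 0.25, 0.19 and -0.01 and limma adjusted p of 0.551, 0.485 and 0.974. Ltbp4, the most abundant member per length in the controls, averaged 17.3 ± 4.59 in the labelled libraries and 17.2 ± 3.13 in controls (SD, n = 4 each), and its sign turned under quantile normalization (0.09) and implied-total scaling (1.30).

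The integrin subunits include those that release TGF-beta from its latent complex. Itgb6, the epithelial partner of the alpha v chain, was 4.83, 2.47, 1.37 and 1.67 in the labelled libraries, against 0.157, 0.242, 2.00 and 0.383 in controls. Control 3 lay above labelled libraries 3 and 4, while the other 3 controls lay below every labelled library (log2 fold change 1.11, SE 0.38, limma adjusted p = 0.123). Its values rest on 0.062 to 18.6 implied fragments, and the authors' interval for control 3 runs from 0 to 6.45. Itga5, a fibronectin receptor chain, was 3.67, 1.49, 2.97 and 1.41 in the labelled libraries, against 1.39, 1.06, 1.17 and 0.918 in controls. These groups did not overlap, with labelled library 4 just above control 1 (log2 fold change 0.61, SE 0.24, limma adjusted p = 0.141). Itgav, the alpha v chain, was 14.9 and 15.1 in labelled libraries 1 and 3 and 3.84 and 3.90 in libraries 2 and 4, against 3.24 to 5.17 in controls (limma adjusted p = 0.226). Itgb3, a further chain that can pair with alpha v, was low in every library, at 0.185 to 0.785 in the labelled libraries, against 0.228 to 0.336 in controls.

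For all 3 receptors the 4 labelled libraries lay above the 4 controls. Tgfbr2, the type II receptor kinase that binds the ligand first, was 10.5, 3.96, 9.36 and 3.08 in the labelled libraries, against 2.37, 2.33, 2.32 and 2.38 in controls. The controls were tightly grouped and the labelled libraries were not. Tgfbr2 (ENSMUSG00000032440, mm9 chr9:115993415-116084383) averaged 6.72 ± 3.73 in the labelled libraries and 2.35 ± 0.0301 in controls (SD, n = 4 each), with a log2 fold change of 1.06 (SE 0.33, limma adjusted p = 0.113). Tgfbr1, the type I receptor kinase, was 7.40, 2.94, 6.14 and 2.72 in the labelled libraries, against 2.27, 2.44, 2.03 and 2.09 in controls (log2 fold change 0.76, SE 0.27, limma adjusted p = 0.125). Tgfbr3, the co-receptor betaglycan, was 4.62, 2.92, 3.77 and 2.00 in the labelled libraries, against 1.76, 1.34, 1.87 and 1.62 in controls (log2 fold change 0.68, SE 0.20, limma adjusted p = 0.108). Libraries 1 and 3 were the highest and library 4 the lowest of the labelled libraries for each receptor. The 3 receptors are among the 9 members called without that library.

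**Figure D3:**
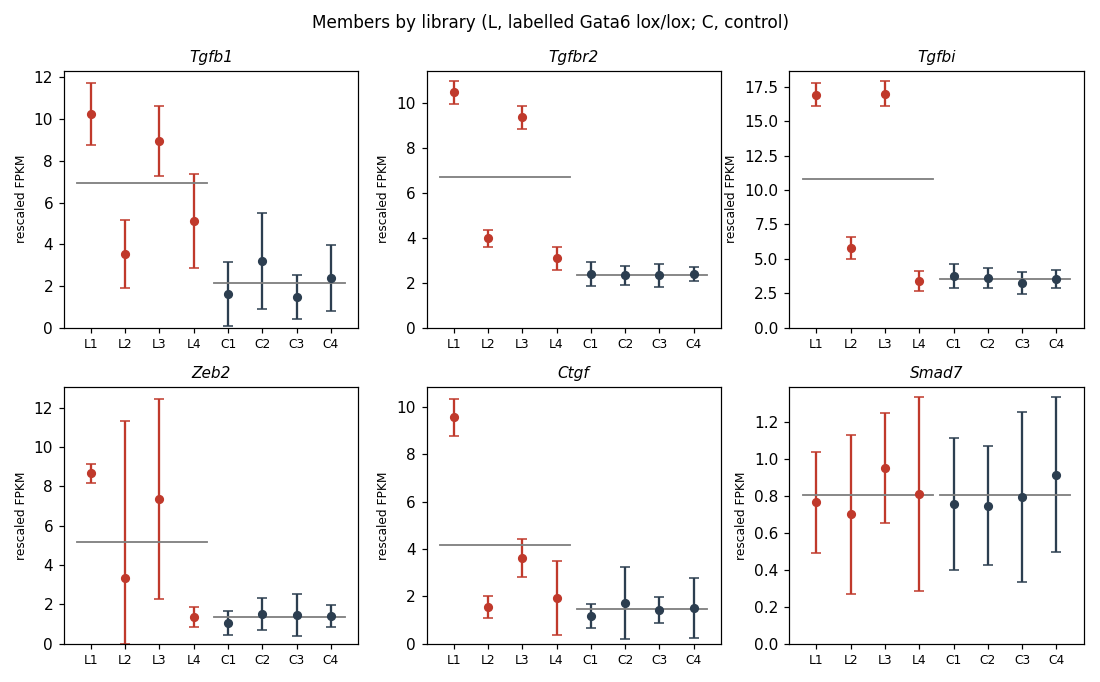
Rescaled FPKM of selected members in each library, labelled Gata6 lox/lox on the left of each panel and controls on the right, with points for the values, bars for the authors' deposited interval of each library and grey lines for the group means (n = 4 each). Tgfbr2 shows 4 controls between 2.32 and 2.38 under labelled libraries that spread from 3.08 to 10.5.

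The signalling SMADs had log2 fold changes of 0.20 to 0.46. Smad1, which carries bone morphogenetic protein signals rather than the classical TGF-beta signal, was 3.24, 2.14, 2.82 and 2.51 in the labelled libraries, against 1.57, 1.88, 1.63 and 1.57 in controls. The groups did not overlap and the labelled libraries were closer together here than for the receptors (log2 fold change 0.46, SE 0.13, limma adjusted p = 0.104). Smad4, the partner shared by both branches, was 6.72, 4.16, 7.25 and 7.35 in the labelled libraries, against 4.96, 3.84, 4.27 and 4.43 in controls. Smad4 is the only one of the 35 genes with its highest value in labelled library 4, and library 2 lay inside the control range (log2 fold change 0.43, SE 0.18, limma adjusted p = 0.150). Smad2 and Smad3, the receptor-activated SMADs of TGF-beta itself, overlapped between the groups, with log2 fold changes of 0.31 and 0.20 and limma adjusted p of 0.301 and 0.346.

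Of the inhibitors only Skil, a SMAD co-repressor, was high enough to test. It was 3.23, 1.39, 2.34 and 1.81 in the labelled libraries, against 1.59, 1.41, 1.34 and 1.75 in controls, so library 2 lay among the controls (log2 fold change 0.31, SE 0.19, limma adjusted p = 0.273). Smad7, an inhibitory SMAD that TGF-beta itself induces, averaged 0.806 ± 0.106 in the labelled libraries and 0.803 ± 0.0766 in controls (SD, n = 4 each). Smad6, the inhibitory SMAD of the BMP branch, was 0.858, 0.424, 0.670 and 0.533 in the labelled libraries, against 1.08, 0.882, 0.530 and 0.715 in controls. Smad6 and Smad7 are the 2 of the 35 members for which labelled library 1 was not above every control.

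The transition factors were low apart from the ZEB pair. Zeb2, a zinc-finger repressor also made by macrophages and stromal cells, was 8.66, 3.36, 7.35 and 1.37 in the labelled libraries, against 1.07, 1.53, 1.47 and 1.41 in controls. Libraries 1 to 3 lay above every control and library 4 among them (log2 fold change 1.18, SE 0.41, limma adjusted p = 0.123). The authors' interval is 0 to 11.3 for labelled library 2 and 2.27 to 12.4 for labelled library 3. These 2 values rest on 0.711 and 8.38 implied fragments. The intervals of controls 2 and 3 reach up to 2.35 and 2.55. Neither labelled library 2 nor 3 is thus told apart from every control by its own interval. Zeb1 was 2.78, 1.81, 1.72 and 0.885 in the labelled libraries, against 0.651, 1.40, 1.92 and 0.874 in controls, with overlapping groups (limma adjusted p = 0.388).

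SNAIL and TWIST factors, which are expressed in few adult epithelial cells, reached at most 1.43 rescaled FPKM in any library and were below the minimum. Snai1 was 1.27 and 1.43 in labelled libraries 1 and 3 and 0.130 and 0.562 in libraries 2 and 4, against 0 to 0.699 in controls. Twist1 was 0.146 to 1.15 in the labelled libraries, against 0.0757 to 0.364 in controls, and Snai2 was 0.113 to 0.482, against 0.162 to 0.309. Twist2 was 0.543, 0.349, 0.536 and 0.176 in the labelled libraries, against 0.111, 0.0936, 0 and 0.151 in controls. These Twist2 groups did not overlap, but no library implied more than 22.0 fragments (without a minimum, log2 fold change 0.36, limma adjusted p = 0.170). Of the cadherins, Cdh11, a cadherin of fibroblasts, was 4.85, 2.39, 5.52 and 2.12 in the labelled libraries, against 1.81, 1.06, 1.34 and 1.74 in controls. Again no labelled library reached down to the controls (log2 fold change 0.86, SE 0.26, limma adjusted p = 0.112). Cdh2, N-cadherin, was 0.249 to 0.924 in the labelled libraries, against 0.164 to 0.257 in controls.

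Among the targets, Tgfbi, a secreted matrix protein induced by TGF-beta, was 16.9, 5.80, 16.98 and 3.38 in the labelled libraries, against 3.74, 3.60, 3.26 and 3.52 in controls. Libraries 1 to 3 lay above every control, and library 4 lay among them (log2 fold change 1.13, SE 0.44, limma adjusted p = 0.142). Ctgf, a matricellular protein and a common readout of both TGF-beta and YAP, was 9.56, 1.56, 3.61 and 1.92 in the labelled libraries, against 1.18, 1.71, 1.43 and 1.52 in controls. Here library 1 was the highest and library 2 lay within the control range (log2 fold change 0.83, SE 0.40, limma adjusted p = 0.197). Cyr61, its relative, was 3.80, 0.945, 3.36 and 0.289 in the labelled libraries, against 0.370, 0.952, 1.47 and 1.14 in controls. Labelled library 4 was the lowest of all 8 (limma adjusted p = 0.449). Ankrd1, a nuclear ankyrin-repeat protein and a further readout of YAP, was 1.53, 0.0361, 0.524 and 0 in the labelled libraries, against 0.0598, 0.261, 0.426 and 0.293 in controls. The 3 YAP readouts Ctgf, Cyr61 and Ankrd1 thus each had labelled libraries 1 and 3 above every control, and libraries 2 and 4 at or among the controls or below them, except Ctgf in library 4, which was just above.

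Promoter windows from 250 bases before to 50 bases after the start were found for 23 of the 35 members in RefSeq's table (GRCm38.p6, a different build from that of the files), as 31 windows among 32851 in all. The TEAD motif CATTCC or its complement GGAATG was present in 14.7% of all windows. Of the 31 member windows it was in 3, those of Ankrd1, Cyr61 and Zeb2. Ctgf had no window and was not searched. The windows of the YAP targets are shown because YAP acts through TEAD; Ankrd1 lies at chr19:36119795-36120094 and Cyr61, listed there as Ccn1, at chr3:145649936-145650235, both on the minus strand and both printed 5′ to 3′ along it, with the motif in capitals.
Ankrd1: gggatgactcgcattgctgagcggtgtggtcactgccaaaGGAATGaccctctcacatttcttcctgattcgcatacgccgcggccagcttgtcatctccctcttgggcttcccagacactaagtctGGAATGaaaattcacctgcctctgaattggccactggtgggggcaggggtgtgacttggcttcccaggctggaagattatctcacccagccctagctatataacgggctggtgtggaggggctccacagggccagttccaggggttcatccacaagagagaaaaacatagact
Cyr61: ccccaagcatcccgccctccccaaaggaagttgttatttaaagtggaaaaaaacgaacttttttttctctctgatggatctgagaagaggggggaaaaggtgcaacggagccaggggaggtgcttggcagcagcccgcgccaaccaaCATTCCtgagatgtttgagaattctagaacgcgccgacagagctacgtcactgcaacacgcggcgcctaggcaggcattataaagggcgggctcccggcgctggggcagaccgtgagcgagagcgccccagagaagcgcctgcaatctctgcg
The matches begin 210 and 123 bases before the Ankrd1 start and 103 bases before the Cyr61 start. Of the other motifs, searched on both strands, the SMAD palindrome GTCTAGAC was in 0.213% of all windows and in that of Smad6, and the short SMAD element CAGAC or GTCTG was in 49.6% of all windows and in 13 of the 31. The E-box CACCTG or CAGGTG bound by Snail and ZEB factors was in 20.2% of all windows and 6 of the 31, and the GATA motif AGATAA or TTATCT in 11.2% and 2 of the 31, those of Ankrd1 and Tgfb2. Matches of letters are descriptions, and no binding was measured.

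Library by library, all 24 tested members were above every control in labelled library 1 (100% beside 44.0% of all genes tested). The count was 15 in library 2 (62.5% beside 25.6%), 19 in library 3 (79.2% beside 43.6%) and 10 in library 4 (41.7% beside 26.0%). For the 20 admitted by their control mean the counts were 20, 12, 16 and 10, beside 39.4%, 21.8%, 38.8% and 24.2% of all genes so admitted. Labelled libraries 1 and 3 were the 2 highest of the 4 in 20 of the 24 (83.3%), beside 40.5% of all genes. The members' median deviation from the control mean was 1.28, 0.27, 0.91 and 0.15 on the log2 scale in labelled libraries 1 to 4, and the controls had -0.02 to 0.07. Over all genes tested it was 0.16, -0.01, 0.17 and 0.03 in the labelled libraries.

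Fibroblast, myeloid, endothelial and duct markers followed the members' order over the labelled libraries, and the other cell type lists did not. For smooth muscle and pericyte markers, labelled libraries 1 and 3 were also the highest, with median deviations of 0.74, 0.20, 0.71 and 0.30. The same held for lymphocyte markers (0.78, 0.61, 1.63 and 0.63) and for Mbp, the only nerve marker tested. Endothelial markers had median deviations of 0.14, -0.06, 0.10 and -0.20 in labelled libraries 1 to 4. Duct markers had 0.92, -0.11, 0.23 and -0.25. The median deviation of 15 fibroblast and stellate markers was 1.51, 0.37, 1.46 and 0.23 in labelled libraries 1 to 4, and that of 14 myeloid markers was 2.51, 0.89, 2.31 and 0.44, so both lists, like the members, were highest in libraries 1 and 3 and lowest in library 4. All 15 fibroblast markers were higher in the labelled libraries, 10 at an unadjusted p under 0.05 (beside 17.8% of all genes higher), among them Dpt, Pdgfrb and Col3a1 with log2 fold changes of 0.98, 0.78 and 1.56. Their summed level was 327.1 to 1129.5 in the labelled libraries, against 208.2 to 259.4 in controls. Of the 14 myeloid markers 13 were higher, 12 at an unadjusted p under 0.05, including C1qb, C1qc and Cd14 (1.91, 1.67 and 1.66), with a summed level of 237.5 to 900.4 in the labelled libraries, against 129.1 to 220.5 in controls. No fibroblast or myeloid marker was listed at 0 in all 8 libraries. The 11 acinar markers were lower in every case, 7 at an unadjusted p under 0.05 (beside 12.2% of all genes lower), with Ptf1a, Ctrl and Cpa1 at -1.24, -3.85 and -2.99. In whole pancreas, fewer cells of a type and less RNA per cell cannot be told apart, and the part of these cell types in the members' values was not tested.

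Among the marker lists only that of adipocytes held genes past the adjusted limma threshold. Counts here too stand beside 17.8% higher and 12.2% lower of all genes. The 9 adipocyte markers deviated by 2.18, 1.81, 1.52 and 1.77 in labelled libraries 1 to 4, and Pck1, Cidec and Plin4 rose (log2 fold changes 1.97, 1.95 and 1.84, limma adjusted p 0.0085, 0.0362 and 0.0422). Their summed level was 387.2 to 507.4 in the labelled libraries, against 75.8 to 225.0 in controls. Endothelial markers had a median log2 fold change of 0.06 over the 9 tested, with 0 at an unadjusted p under 0.05 in the higher direction and Kdr and Flt1 lower, at -0.30 and -0.36. Their summed level was 32.5 to 45.3 in the labelled libraries, against 37.7 to 47.1 in controls. For smooth muscle and pericytes 3 of 5 tested markers had an unadjusted p under 0.05 (Acta2 0.68, Tagln 0.73, Notch3 0.41), and for lymphocytes 5 of 8 (Cd4 1.12, Ptprc 1.58, Cd52 1.62). Mesothelial markers gave 4 of 6 (Wt1 0.92, Krt19 1.13, Lrrn4 0.60) and islet markers 1 of 9 (Sst 1.77, beside Chgb 0.99 and Ins1 1.26), all higher. Duct markers gave 1 higher and 1 lower of 6 (Krt19 1.13 and Muc1 -1.75, beside Krt7 1.18), and the only nerve marker tested, Mbp, was at -0.36. Krt19 is counted in both the mesothelial and the duct list, and Krt19 and Krt7 also stand in the epithelial list below. Notch3, Cd4, Wt1 and Chgb had a control mean under 1 and entered the test through the labelled libraries. With markers admitted by a control mean of at least 1, the counts higher were 2 of 4 for smooth muscle, 3 of 6 for lymphocytes, 3 of 5 for mesothelium, 7 of 8 for adipocytes and 1 of 8 for islets, beside 15.5% of all genes so admitted, and the fibroblast, myeloid, acinar, endothelial, duct and nerve counts stayed as given. The summed levels ranged over 19.9 to 34.3 in the labelled libraries, against 14.3 to 19.3 in controls for smooth muscle, 106.6 to 420.3 against 44.5 to 178.8 for lymphocytes, 27.6 to 62.2 against 14.0 to 25.9 for mesothelium, 763.5 to 5976.6 against 558.8 to 1478.2 for islets, 128.6 to 241.1 against 171.2 to 227.0 for ducts and 3.41 to 5.69 against 4.64 to 6.35 for nerve.

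**Figure D4:**
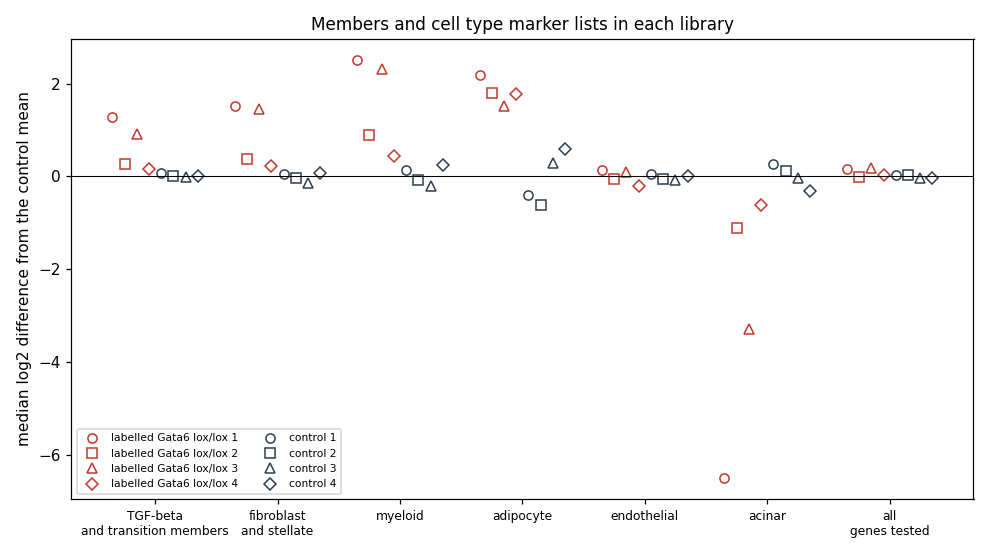
Median deviation from the control mean, on the log2(rescaled FPKM + 1) scale, of the members, marker lists and all genes tested, with 1 symbol per library, red for labelled Gata6 lox/lox (left in each column) and dark for controls (right). The members lie at 1.28 in labelled library 1 and 0.15 in labelled library 4, and the fibroblast, myeloid and endothelial lists are in the same order.

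Other genes of the pathways were read from lists that do not hold the members, except that Tgfb2 is also among the YAP targets, and 0 of them passed the adjusted limma threshold; counts are at an unadjusted p under 0.05, beside 17.8% higher and 12.2% lower of all genes. Other TGF-beta target genes had the highest share passing among these lists: 15 of 16 were tested, all 15 were higher, 11 passed, and the median log2 fold change was 1.15. Postn and Fn1, matrix proteins, and Acta2, smooth muscle actin, were at 1.89, 1.47 and 0.68, and 6 of the 16 genes also stand in another list, 3 of them as fibroblast markers. Extracellular regulators were higher in all 8 tested of 14, with 3 passing, Thbs1, Dcn and Fbn1, of which Dcn is also among the fibroblast markers. Thbs1, thrombospondin 1, an activator of latent TGF-beta, was 22.2, 4.63, 18.4 and 2.90 in the labelled libraries, against 2.55, 2.17, 1.64 and 2.76 in controls (log2 fold change 1.62, limma adjusted p = 0.123). Of the other SMADs and cofactors 5 of 9 tested passed higher and 1 lower, with Tgif1, a co-repressor of SMAD2, at 1.31, Pmepa1, a feedback inhibitor that TGF-beta induces, at 1.15 and Smad5, a BMP effector, at 0.39. Pmepa1 was 7.63, 1.60, 4.01 and 1.75 in the labelled libraries, against 0.822, 0.508, 1.15 and 1.16 in controls, so it did not overlap where Smad7 and Smad6 did.

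The lists of other superfamily ligands and receptors had medians of -0.08 and 0.06 over the genes tested. Only Bmp1 and Bmp7 were tested among the 11 genes of the ligand list, at 0.97 and -1.12, and Nodal was listed at 0 throughout. Bmp1 is a protease that processes procollagen rather than a ligand, so the median of that list does not describe ligands. Of 7 tested receptors among 10, 0 passed an unadjusted p of 0.05 by limma, with lowest p for Bmpr1a 0.32, Bmpr2 0.35 and Acvr2a -0.21. In the Hippo list 13 of 15 were tested, 4 passed higher and 1 lower, with a median of 0.25. Stk4, the Hippo kinase MST1, was 4.85, 2.72, 4.81 and 2.77 in the labelled libraries, against 0.942, 1.48, 1.12 and 1.94 in controls (log2 fold change 1.00, limma adjusted p = 0.0864). Sav1, its scaffold, was at 0.45. Tead2, a DNA-binding partner of YAP, went the other way, at 14.3, 37.1, 22.3 and 34.1 in the labelled libraries, against 65.0, 71.2, 60.9 and 56.8 in controls (log2 fold change -1.29, limma adjusted p = 0.0923). Under implied-total scaling Tead2 was at 0.05, and Acvr2a, Kdr, Flt1 and Mbp also turned positive (0.71, 0.73, 0.63 and 0.79), each below the median of all genes there. The other YAP targets gave 5 of 13 tested (Birc5 0.78, Dlc1 0.41, Axl 0.81), with a median of 0.39.

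Pmepa1, Birc5 and Cldn4 had a control mean under 1, so they entered the test through the labelled libraries. With genes admitted by a control mean of at least 1, the counts higher were 10 of 14 for the other TGF-beta targets, 3 of 6 for the extracellular regulators, 4 of 8 for the SMADs and cofactors, 4 of 12 for the Hippo list, 4 of 9 for the YAP targets, 7 of 10 for the mesenchymal and 4 of 16 for the epithelial list, beside 15.5% higher and 13.9% lower of all genes so admitted.

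Both the mesenchymal and the epithelial lists had positive medians. Of the other mesenchymal factors and markers all 11 tested of 13 were higher and 6 passed, with Mmp14, a membrane metalloproteinase, at 1.58, S100a4 at 1.63 and Sox4 at 1.23, and a median of 0.97. Of the epithelial genes 17 of 18 were tested, 13 were higher, 5 passed higher and 1 lower, and the median was 0.42. Cldn4, a tight-junction claudin, was 28.5, 7.79, 59.1 and 1.93 in the labelled libraries, against 0.581, 1.34, 0.919 and 0.765 in controls (log2 fold change 2.96, limma adjusted p = 0.104). Epcam, an epithelial adhesion molecule, was 30.2, 9.23, 20.1 and 10.6 in the labelled libraries, against 7.15, 7.03, 6.78 and 6.45 in controls, and Cldn7 had a log2 fold change of 0.97. For Cldn4 and Epcam, as for most members, labelled libraries 1 and 3 were the highest, and neither gene overlapped between the groups. Without labelled library 4 the calls at an adjusted p under 0.05, in either direction, were 6 of the other TGF-beta targets, 2 extracellular regulators, 3 SMADs and cofactors, 1 ligand, 0 receptors, 4 Hippo genes, 3 YAP targets, 6 mesenchymal and 6 epithelial genes, beside 21.6% of all genes. The ligand was Bmp7, which was lower. The Hippo genes included Tead2, which was lower, and Stk4 and Sav1, which were higher.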

How the data were processed

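Whole pancreas RNA from 4 mice labelled Gata6 lox/lox and 4 controls had been made into poly(A) TruSeq libraries with 8 PCR cycles from RNA of integrity 7.1 to 8.8 and read on an Illumina Genome Analyzer IIx, according to the labels' protocols. Tools listed by the submitters' processing notes are Cufflinks 2.0.1, TopHat2 2.0.4, Bowtie and CASAVA 1.8, with builds NCBIM37 and mm9. Not given in the sources used here are read length, strand, gene model and scaling option. The authors deposited 1 table of gene FPKM with interval bounds per library (36448 entries, 36432 IDs, with 14 IDs on more than 1 entry summed). Deposited FPKM summed to 2.34e+10 to 1.86e+11 per library, so every value was divided by 100000. The tables used here hold no counts. Fragments were implied from interval widths, only to describe depth and for 1 rescaling, with totals over genes with a valid estimate in every library. They include the uncertainty of assignment between isoforms and overlapping genes and cover no variation between animals.

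The 39 genes with a failed or missing estimate in any library were left out (8 too abundant, 31 failed). Genes with a mean of at least 1 were tested on log2(value + 1) with limma 3.58.1 in R 4.3.3 (intensity trend, two-sided, Benjamini-Hochberg over 11832 genes, threshold 0.05). Fold changes on this scale understate the change of low genes. The fit was tested on simulated data. The labels name no litters, so p-values measure only the spread between these libraries. The members and lists were chosen with earlier results of these data known. Named are members at an unadjusted p under 0.05 or, in a role group with none, that of lowest p, and up to 3 genes of lowest p per other list. Sample values of Tgfb2, Itgav, Zeb1, Ctgf, Cyr61 and the untested members, and of some list genes, were added after they were seen. Alternatives changed the pseudocount (0.1, 5), the minimum (none, 5, control mean of 1), the scaling, the trend, the title prefix and the libraries. Analysis used Python 3.11.15 with pandas 2.3.3, scipy 1.17.1 and matplotlib 3.10.9.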

Additional observations from a re-analysis of the deposited data

Results flagged for a closer look

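Of 70 groups of 4 libraries (35 members in each of 2 groups), 2 held a library far from the other 3 by Dixon's criterion, which chance gives in about 1 of 20 groups. Itgb6 in control 3 was 2.00 rescaled FPKM, beside 0.157 to 0.383 in the other controls, and its deposited interval reaches 0. Inhba in control 4 was 0.0529, where the other controls are listed at 0. No member had an interaction of group and title prefix past the adjusted limma threshold (lowest adjusted p 0.962). With 1 control under the shared prefix and 1 labelled library under the others, that fit does not show that the differences were alike, and the fitted interactions reached 1.29 on the log2 scale (Cyr61 and Tgfb1).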

How the results depend on the processing

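The number of members past an adjusted p of 0.05 was 0 under each alternative except without labelled library 4, and ranged from 0 to 9 when 1 library was left out. The 13 members at an unadjusted p under 0.05 became 1 of 6 with a minimum of 5, 8 under quantile normalization, 24 of 27 under implied-total scaling, 4 with the prefix as covariate, 1 and 6 within the prefixes, 3 without labelled libraries 1 and 3, and 6 to 16 with 1 library left out (6 beside 18.0% of all genes without labelled library 3, 7 beside 20.2% without labelled library 1, 7 beside 21.7% and 20.6% without control 2 or control 3, 8 beside 24.5% without control 4, 16 beside 43.2% without labelled library 4). The members' median was 1.52 under implied-total scaling, where that of all genes was 1.11. It was 0.51 and 0.45 under median-ratio and quantile scaling (all genes -0.05 and -0.03), and 0.42 to 0.85 with 1 library left out. No paired analysis was possible because the labels give neither replicate numbers nor litters or batches shared between groups, and the numbers used here only name libraries.

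Gata6 stayed higher but missed the adjusted threshold at 0.90 and 0.38 with pseudocounts of 0.1 and 5, 0.72 without a minimum, without the trend or with a control mean of 1 (added after seeing the data), 0.57 under median-ratio and 0.57 under quantile scaling, 1.79 under implied-total scaling, 0.71 with the prefix as covariate, 0.57 and 0.85 within the prefixes, and 0.69 without labelled libraries 1 and 3. With 1 library left out it was 0.67 to 0.77. Of the members' log2 fold changes under alternatives, 455 kept sign and call, 9 gained the call without labelled library 4, and 18 changed sign. Ltbp4 turned to 0.0931 under quantile and 1.30 under implied-total scaling, 0.0391 with the covariate and 0.34 within the other prefixes, and lay between -0.1234 and 0.0961 with 1 library left out. Ltbp3 turned to -0.016 within the shared prefix. Within the other prefixes Ltbp1 was -0.0896, Smad4 -0.0039, Skil -0.0593 and Cyr61 -0.16. Without labelled libraries 1 and 3, Ltbp1 was -0.18, Ltbp3 -0.0423, Itgav -0.0324, Cyr61 -0.29 and Tgfb2 -0.0543. The cause was not tested. Over all genes the 49 calls became 30 under quantile and 6 under implied-total scaling, 5 with the covariate, 16 and 89 within the prefixes, 13 without labelled libraries 1 and 3, and 10 to 2556 with 1 library left out. Higher genes were 57.8% of those tested, 46.3% under median-ratio, 47.1% under quantile and 96.3% under implied-total scaling. A minimum of 5 gave no value for Gata6. Depth limits 23 of the 35 members, which rest on under 10 implied fragments in at least 1 library.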
